A study of Mus musculus with 4 samples.

Results

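The cytosolic chaperonin CCT, also called TRiC, is a barrel of stacked rings that folds newly made proteins inside a closed chamber, driven by ATP. Each ring is built from 8 different but related subunits, the products of Tcp1, Cct2, Cct3, Cct4, Cct5, Cct6a, Cct7 and Cct8, and a complete ring needs each of them. Actin and the tubulins are its best-known clients and depend on it to fold, and several cell cycle proteins with WD repeats, such as Cdc20, pass through it as well. All 8 genes were found on the arrays through the RefSeq accession of the probe. They were covered by 9 of 41174 probes, and 8 of the 21451 genes tested are theirs. The family was chosen by the log2 ratios and dye signals of its probes on these same arrays, DAPT against vehicle, so the differences below are a description and support nothing further.

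The arrays measured RNA of prostate spheres, three-dimensional cultures grown from basal cells sorted out of adult FVB mice. Spheres were kept with 5 µM DAPT (2 arrays) or with the DMSO vehicle (2 arrays), and the medium was replaced every 24 h. DAPT inhibits γ-secretase, the protease that frees the active part of Notch receptors, and the study asks how Notch signalling acts on basal cells. Sphere RNA was always labelled red and set against the same universal mouse RNA in green, with no dye swap, so a level is given as the log2 ratio of red over green. The labels do not say whether replicates were grown from different mice or plates, so a p-value here speaks of the spread among samples alone, which may be technical.

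Log ratios of all genes tested correlated at 0.944 between the DAPT arrays, at 0.922 between the vehicle arrays and at 0.839 to 0.879 between groups, and all 4 arrays sat on 1 slide scanned in 1 run. DAPT arrays held positions 1 and 2 on that slide and vehicle arrays positions 3 and 4, so position and treatment cannot be told apart. The 8 basal markers had a median log2 ratio of 4.05 and 3.89 with DAPT and 3.76 and 3.62 with vehicle, while 1 of them fell (Krt15, by 1.08) and 0 rose. The 6 luminal markers tested had medians of 3.17 and 3.39 with DAPT and 3.52 and 3.36 with vehicle, and Krt19 was among those that fell, while Pbsn did not clear background in the red channel. Markers of fibroblasts and smooth muscle fell with DAPT in 7 of 12 genes, with none higher, where 3.93% of all genes passed downward. Their summed red signal was 73263 and 82284 with DAPT and 85958 and 110401 with vehicle. For basal markers that sum was 148270 and 141487 with DAPT and 242367 and 141028 with vehicle. For luminal markers it was 96480 and 99009 with DAPT and 184169 and 107573 with vehicle. Of the leukocyte markers 5 were tested and of the endothelial markers 2, with 0 passing in limma and 1 and 0 at an unadjusted p under 0.05. Fewer cells of a type and less RNA per cell cannot be told apart in such samples, and the part of these cells in the CCT values was not tested.

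Every CCT subunit had a higher mean log2 ratio with DAPT, where 43.6% of all genes did, and none of the 8 differences passed the threshold. The differences ran from 0.30 to 0.70 on the log2 scale with a median of 0.49 (1.40-fold), each with a standard error between 0.20 and 0.24. With limma and Benjamini-Hochberg adjustment over all genes, 0 of 8 subunits passed at 0.05 in either direction, while 5 of 8 had an unadjusted p under 0.05, as did 23.2% of all genes. Over all genes 2.90% passed upward (622 genes) and 3.93% downward (844 genes), and the median change was -0.06. The smallest change of any gene called higher was 0.70, and only the Cct3 difference was that large. Among the 4291 brightest genes (the top 1 of 5 equal groups by brightness), which hold all 8 subunits, 1.47% passed upward and 5.78% downward. Of these brightest genes 31.9% had a change above 0. When arrays were centred on their median and not by loess, calls over all genes split into 1261 higher and 525 lower, and with scale normalization between arrays into 380 higher and 1003 lower. The family was on opposite sides of the threshold under different scalings: with median centring all 8 subunits passed upward, where 5.88% of all genes did. Median centring also moved the brightest genes as a group: their median change was -0.15 with loess and 0.30 with median centring.

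The subunits are taken in the order of the ring's known ATP use. In budding yeast, one side of the ring holds the subunits that bind ATP strongly and the other those that bind it weakly.

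On the weakly binding side, Cct3, the gamma subunit, had log2 ratios of 1.27 and 1.34 on the DAPT arrays, against 0.28 and 0.93 on the vehicle arrays, a change of 0.70 ± 0.23 (SE). The DAPT arrays lay close together and above both vehicle arrays, which were far apart. Cct6a, the zeta subunit made in most tissues, stood at 0.61 and 0.88 with DAPT, against -0.20 and 0.43 with vehicle, a change of 0.63 ± 0.24. Of its 4 arrays only vehicle 1 had a negative log2 ratio, on a scale that loess centred within each array. Cct8, the theta subunit, had 1.46 and 1.37 with DAPT, against 0.58 and 1.10 with vehicle (0.58 ± 0.22), and its DAPT values were again the closer pair. Tcp1, the alpha subunit and the founding member of the family, had 0.79 and 0.86 with DAPT, against 0.27 and 0.78 with vehicle (0.30 ± 0.22). Its DAPT arrays and vehicle 2 were almost level, with a gap of 0.02 between DAPT 1 and vehicle 2, and vehicle 1 alone was low.

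On the strongly binding side, Cct5, the epsilon subunit, had log2 ratios of 0.61 and 0.94 with DAPT, against -0.01 and 0.46 with vehicle, a change of 0.55 ± 0.22. The groups did not overlap. Cct4, the delta subunit, stood at 0.80 and 1.17 with DAPT, against 0.55 and 0.60 with vehicle (0.40 ± 0.21). Here the vehicle arrays were the close pair. Cct7, the eta subunit, had 0.94 and 0.81 with DAPT, against 0.53 and 0.37 with vehicle (0.43 ± 0.20), and it was the only subunit higher on vehicle 1 than on vehicle 2.

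Cct2, the beta subunit, was the only one with a second probe. Its brighter probe gave log2 ratios of 1.05 and 1.67 with DAPT, against 0.85 and 1.13 with vehicle (0.37 ± 0.23), and this was the only subunit whose groups overlapped, since DAPT 1 lay below vehicle 2. The other Cct2 probe gave 0.96 and 1.27 with DAPT, against 0.59 and 0.78 with vehicle, with no overlap and a change of 0.43 ± 0.20 in the fit of every probe on its own. The changes at these probes differed by 0.06. Both probes were read on the same arrays, so their standard errors do not carry over to this gap, which was not tested. In all, log2 ratios did not overlap between groups for 7 of 8 genes, all higher with DAPT, where 22.1% of all genes lay wholly higher and 31.7% wholly lower.

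**Figure D1:**
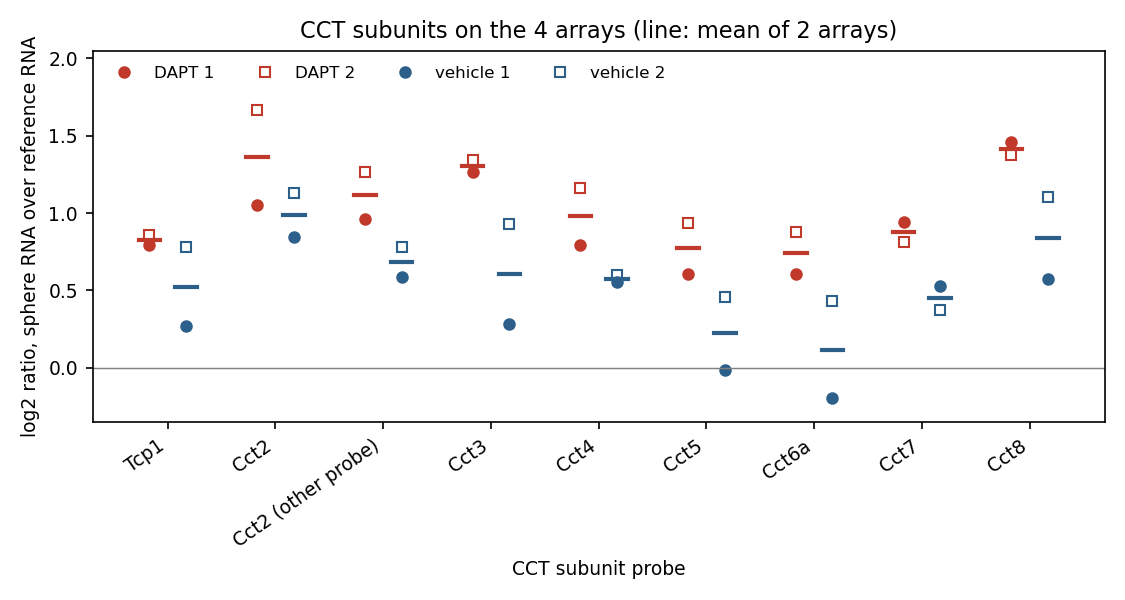
Log2 ratio of sphere RNA over reference RNA (y axis) for the 9 CCT probes (x axis), with DAPT arrays in red to the left of vehicle arrays in blue; filled circles are replicate 1, open squares replicate 2 and bars the mean of 2 arrays. All DAPT means lie above the vehicle means, and the brighter Cct2 probe is the only one whose groups overlap.

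Promoter sequence was read from RefSeq windows of GRCm38.p6, each with 250 bases before and 50 after a gene start. Of the 8 genes 7 matched, with 9 windows among 32851 (Cct4 was the other). Stretches of 110 bases up to the base before the start are shown for the subunits with the largest changes, Cct3 and Cct6a, for the one with the smallest, Tcp1, and for Cct5, which has letters of a heat shock element there, a choice made after these values were seen. Capitals mark the GC box GGGCGG, the CCAAT box and the heat shock arrangements GAANNTTC and TTCNNGAA, on either strand. Cct3 lies at chr3:88297025-88297134 (+), Cct6a at chr5:129787246-129787355 (+), Cct5 at chr15:31601847-31601956 (-) and Tcp1 at chr17:12916219-12916328 (+).
Cct3: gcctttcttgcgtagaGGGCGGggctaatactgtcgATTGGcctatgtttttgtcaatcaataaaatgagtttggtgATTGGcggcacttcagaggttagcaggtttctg
Cct6a: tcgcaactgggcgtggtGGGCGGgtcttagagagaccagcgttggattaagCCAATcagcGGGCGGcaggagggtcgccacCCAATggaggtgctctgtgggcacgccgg
Cct5: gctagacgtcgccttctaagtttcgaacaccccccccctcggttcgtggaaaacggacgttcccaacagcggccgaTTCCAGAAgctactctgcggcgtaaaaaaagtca
Tcp1: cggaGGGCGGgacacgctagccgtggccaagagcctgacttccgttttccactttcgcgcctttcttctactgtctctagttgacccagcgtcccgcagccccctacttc

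Over the whole windows, GGGCGG was found in 8 of 9 CCT windows (88.9%), in at least 1 for each of the 7 genes, and in 35.7% of all windows. CCAAT was found in 4 of 9 (Tcp1, Cct3, Cct6a and Cct7) and in 37.4% of all. TTCNNGAA stood in 2 CCT windows (Cct5 and Cct6a) and in 8.52% of all, and GAANNTTC in 1 (a second start of Cct2) and in 7.86% of all. These arrangements can overlap each other. CCGGAAG, the core letters bound by ETS factors, was in 3 windows (Tcp1, Cct2 and Cct8) and in 8.86% of all. TGGGAA, the letters bound by RBPJ, the DNA-binding partner of Notch, was in 2 windows (Cct5 and Cct8) and in 25.6% of all, and the E-box CACGTG was in none, against 7.15% of all. No motif but the GC box was shared by all 7 genes, and these matches are letters in a window and no measure of binding.

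The changes of the 8 subunits lay close to each other. Their standard deviation was 0.14, below the standard error of any single subunit, and all 8 changes lay within 1 standard error of their median. The largest gap between any 2 subunits, that of Cct3 over Tcp1, was 0.39, and the median gap over the 28 pairs was 0.15. Subunits were read on the same arrays, so these standard errors do not carry over to a gap between 2 subunits. Such gaps were not tested. Across all genes the standard deviation of the change was 0.44. The range that held the subunits, 0.30 to 0.70, also held 13.7% of all genes.

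The family also differed between arrays of the same group. On vehicle 1, 7 of 8 subunits were lower than on vehicle 2, with a median difference of -0.49 and a range of -0.65 to 0.16. That gap between vehicle replicates was as large as the median change with DAPT. Between DAPT 1 and DAPT 2 the median difference was -0.17, with 6 of 8 subunits lower on DAPT 1. Over all genes the same differences had medians of -0.05 and -0.02, and over the 4291 brightest genes medians of -0.20 and -0.07. Of the brightest genes 22.6% were higher on vehicle 1 than on vehicle 2, and 38.9% higher on DAPT 1 than on DAPT 2. Over all genes these shares were 43.3% and 47.5%, and among the subunits 12.5% and 25%. The low values of vehicle 1 ran through most of the ring, most of all at Cct3 (-0.65), Cct6a (-0.63) and Cct8 (-0.53), and left out Cct7 (0.16) and nearly Cct4 (-0.05).

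Each DAPT array was set against each vehicle array in turn. Against vehicle 1 the median subunit difference was 0.57 on DAPT 1 and 0.81 on DAPT 2, and all 8 subunits were higher on both. Against vehicle 2 the median was 0.19 on DAPT 1, with 7 of 8 subunits higher, and 0.44 on DAPT 2, with all 8 higher. Of the brightest genes, 39.6% (DAPT 1) and 48.9% (DAPT 2) were higher against vehicle 1. Against vehicle 2 these shares were 22.05% and 29.8%. Without vehicle 1 the median change was 0.31 and 0 of 8 subunits had an unadjusted p under 0.05 or passed in limma, against 23.2% of all genes at that unadjusted p. Without vehicle 2 it was 0.67, and Cct3, Cct6a and Cct8 passed (adjusted p = 0.0124, 0.0237 and 0.0395 in limma), where 2.77% of all genes passed upward. With the replicate number as a block only Cct3 passed (adjusted p = 0.0485 in limma), where 4.18% of all genes passed upward.

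**Figure D2:**
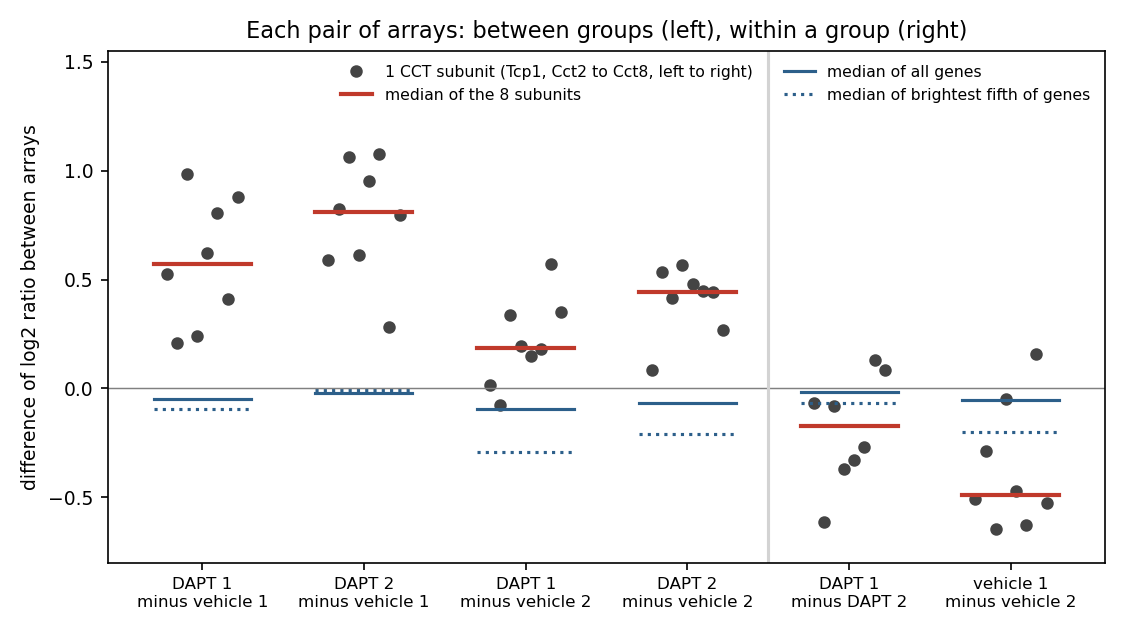
Difference of the log2 ratio between each pair of arrays (y axis) for the 8 subunits (points, Tcp1 to Cct8 from left to right), with the median of the subunits (red), of all genes (solid blue) and of the brightest genes (dotted blue). Subunit medians are 0.57, 0.81, 0.19 and 0.44 between groups, -0.17 between the DAPT arrays and -0.49 between the vehicle arrays.

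The subunits kept together in the ratio but not in the signal of either dye alone. In the red channel, after loess and Aquantile normalization (which gives all arrays the same brightness distribution), 4 of 8 subunits were higher with DAPT and 4 lower, with changes from -0.66 for Cct7 to 1.27 for Cct3 and a standard deviation of 0.68. In the green channel, which held the same reference RNA on every array, 2 were higher and 6 lower, from -1.08 for Cct7 to 0.58 for Cct3. Ordered by their green change, the 8 subunits had nearly the same order in red, with only Tcp1 and Cct8 exchanged, and the red change exceeded the green change at all 9 probes.

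Cct7 shows this most plainly. Its log2 red signal was 14.13 and 11.52 with DAPT, against 13.66 and 13.30 with vehicle, and its log2 green signal was 13.19 and 10.71 with DAPT, against 13.13 and 12.93 with vehicle. The spot on DAPT 2 was dim in both dyes, with unprocessed median signals of 1990 in red and 2800 in green, against 14857 and 18623 on DAPT 1. Cct5 behaved alike, with log2 green signals of 12.44 and 9.02 with DAPT and 12.24 and 11.05 with vehicle, a range of 3.42 for a single reference RNA. Cct3 went the other way, with log2 red signals of 12.24 and 12.38 with DAPT, against 11.12 and 10.95 with vehicle.

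Over the 4 arrays the log2 green signal of a gene had a median range of 0.65 over all genes and 0.70 over the brightest genes, whereas Cct7 covered 2.48, Cct4 1.65 and the brighter Cct2 probe 1.60. Cct3 and Cct8 covered 1.01 each, Tcp1 0.78 and Cct6a 0.60, which is below both medians. The other Cct2 probe covered 0.19 in green, so its change of 0.43 lay in the red channel, where its log2 signal was 11.92 and 12.05 with DAPT, against 11.56 and 11.56 with vehicle. At the brightest probe of each gene, only Cct3 and Cct6a were wholly higher with DAPT in red, where 21.5% of all genes were. Both were also wholly higher in green, where 21.9% of all genes were, and Tcp1 and Cct8 were wholly lower in green, where 18.6% were. The scanner software marked all 9 CCT spots on each DAPT array as non-uniform or as outliers, against 3 on vehicle 1 and 7 on vehicle 2. Among the brightest genes it marked 91.6% and 95.6% on the DAPT arrays and 34.0% and 65.6% on the vehicle arrays, so with marked spots left out no subunit could be tested. The part of these marks in the differences was not tested.

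**Figure D3:**
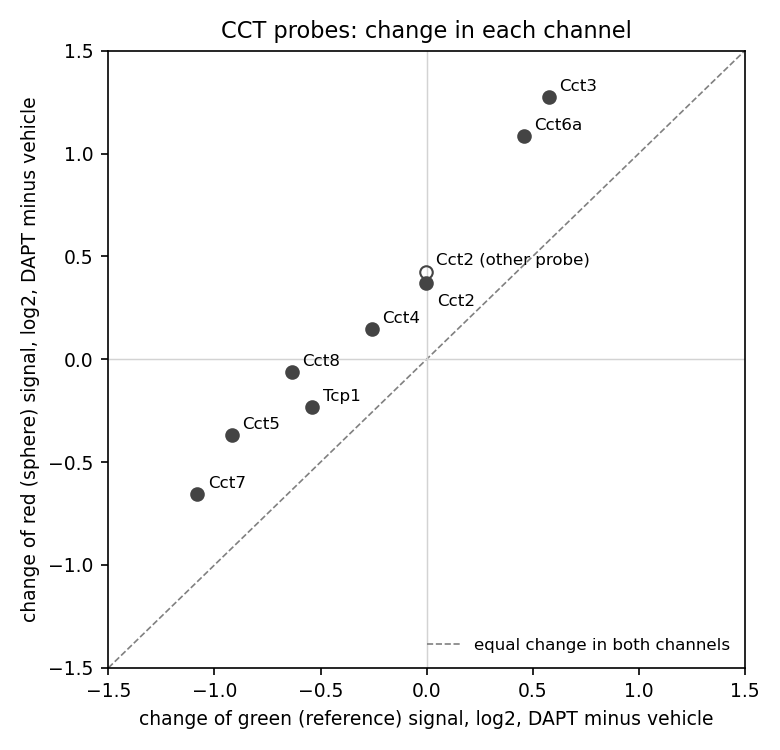
Change with DAPT, on the log2 scale, of the red sphere signal (y axis) against that of the green reference signal (x axis) for the 9 CCT probes; the open circle is the dimmer Cct2 probe and the dashed line marks equal change in both channels. All points lie above the line while running along it from Cct7 (-1.08 in green, -0.66 in red) to Cct3 (0.58 and 1.27).

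Relatives and partners of the ring were read from lists of genes, chosen with earlier results of these data known. Cct6b, the zeta subunit otherwise known from testis, had log2 ratios of 0.86 and 0.91 with DAPT, against 0.34 and 0.26 with vehicle, a change of 0.59 ± 0.19 that did not pass (adjusted p = 0.0892). Its probe could also catch RNA of its close relative Cct6a, which was not tested. The Cct6b change passed when arrays were centred on their median (adjusted p = 0.023). Of the 4 relatives of the ring tested, Cct6b included, 0 passed and 1 had an unadjusted p under 0.05, with a median change of 0.34. Prefoldin, the complex that hands unfolded actin and tubulin to CCT, was mixed: its 6 subunits had a median change of -0.08 and ran from -0.62 for Pfdn5 to 0.62 for Pfdn4, with 0 passing in limma and 2 at an unadjusted p under 0.05. In the fit of every probe on its own 1 of the prefoldin subunits passed upward. Pfdn2 stood at -0.22 ± 0.20. Among 4 phosducin-like cofactors that act with CCT the median was 0.04 and 0 passed in limma (1 at an unadjusted p under 0.05), with Pdcl3 at 0.50 ± 0.20 (adjusted p = 0.145).

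Of 14 actin and tubulin genes, the classical clients, 3 rose and none fell, with a median change of 0.42 and 11 above 0. Over all genes 2.90% passed upward and 43.6% lay above 0. Tubb4b, a beta-tubulin, had log2 ratios of 1.83 and 2.23 with DAPT, against 0.64 and 1.23 with vehicle, and rose by 1.10 ± 0.24 (adjusted p = 0.0175). Tubb2a rose by 0.95 ± 0.20 (adjusted p = 0.0144) and Tubb6 by 0.81 ± 0.21 (adjusted p = 0.0394), though tubulin genes are close relatives whose probes may not tell them apart. The most widely used beta-tubulin gene Tubb5 stood at 0.41 ± 0.20 without passing, and the actin genes Actb and Actg1 at 0.10 ± 0.20 and -0.28 ± 0.20. Without vehicle 1, Tubb4b (adjusted p = 0.0508) and Tubb6 (0.138) did not pass, nor did both without DAPT 2 (0.055 and 0.0666) or Tubb6 without DAPT 1 (0.0869). With scale normalization 0 of the 14 rose and Actg1 fell (adjusted p = 0.0476 in limma). With median centring 8 rose, where 5.88% of all genes did. Of 13 other reported clients tested, Cdc20, which activates the anaphase-promoting complex, rose by 0.89 ± 0.20 (adjusted p = 0.0196) and the transcription factor gene Stat3 fell by 1.01 ± 0.20 (adjusted p = 0.0118). Cdc20 did not pass without DAPT 2 (adjusted p = 0.0739) and Stat3 did not pass with median centring (0.143).

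Medians of the other chaperone systems ran from -0.19 for the tubulin folding cofactors to 0.43 for the mitochondrial chaperones. In the cytosolic HSP70 and HSP90 system with its heat shock factors, 0 of 23 genes passed in limma and 5 had an unadjusted p under 0.05. The median change was 0.0061, with 12 genes above 0. Over all genes 23.2% had such an unadjusted p and 43.6% lay above 0. Hsf1, the main heat shock factor, stood at 0.0061 ± 0.22, the constitutive HSP70 gene Hspa8 at -0.10 ± 0.30 and the HSP90 gene Hsp90ab1 at -0.50 ± 0.19. The other cytosolic HSP90 gene, Hsp90aa1, stood at 0.67 ± 0.19 (adjusted p = 0.0574 in limma), the highest of the list. The lowest was the HSP70 gene Hspa1a at -0.73 ± 0.27 (adjusted p = 0.127 in limma). Both were named after their values were seen. With median centring 6 of the 23 genes passed upward in limma, Hsp90aa1 among them (adjusted p = 0.00927), where 5.88% of all genes did. With the replicate block 1 passed in each direction, upward Hsp90aa1 (0.0454) and downward Hspa1a (0.0473). With scale normalization 1 passed downward, Hspb1 (adjusted p = 0.00444), also named after its values were seen. In the fit of every probe on its own 1 passed downward. Hspa8 had its lowest log2 ratio on vehicle 1 (0.05) and its highest on vehicle 2 (1.18), a wider gap than at any CCT subunit. Of 6 mitochondrial chaperone genes 1 rose, Hspd1, which encodes the chaperonin HSP60, by 0.82 ± 0.20 (adjusted p = 0.0286), with log2 ratios of -1.73 and -1.58 with DAPT, against -2.37 and -2.58 with vehicle. It did not pass without vehicle 2 (adjusted p = 0.0884) or DAPT 2 (0.115). Of 12 chaperones of the endoplasmic reticulum, the disulfide isomerase gene Pdia6 rose by 0.77 ± 0.20 (adjusted p = 0.0419, 0.114 without vehicle 1 and 0.181 without DAPT 2), and the median was 0.11. Of 6 tubulin folding cofactors 0 passed in limma, 0 had an unadjusted p under 0.05 and the median was -0.19.

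Other complexes built as rings gave a scale for how tightly subunits kept together. The 14 core subunits of the 20S proteasome, the chamber that degrades proteins, had a median change of -0.05 with a standard deviation of 0.20. Of the 14, 5 lay above 0, where 43.6% of all genes did. In limma 0 passed and 1 had an unadjusted p under 0.05. With median centring 1 passed upward, and with scale normalization 1 passed downward. The 6 subunits of the MCM2-7 helicase, which opens DNA for replication, had a median of 0.83 with a standard deviation of 0.25. In all 5 of 6 rose, where 2.90% of all genes passed upward. Mcm3 rose by 1.16 ± 0.20 (adjusted p = 0.00601), Mcm5 by 0.94 ± 0.21 and Mcm2 by 0.87 ± 0.21. Of these 5, Mcm3 alone passed without DAPT 2, and Mcm3 and Mcm5 without vehicle 1. Across all lists 12 genes passed, and 0 of these passed with the debris spots of DAPT 2 kept (adjusted p = 0.0994 to 0.282) or in the red channel alone (0.229 to 0.49). Of the same 12 genes 6 passed with scale normalization, 2 with processed signals, 1 with no normexp offset and 11 with median centring. Prefoldin subunits were spread by 0.44, like genes at large, against 0.14 for CCT. Between vehicle 1 and vehicle 2 the median difference was -0.17 for the proteasome core and -0.10 for the helicase, against -0.49 for CCT. Differences between these complexes were not tested.

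**Figure D4:**
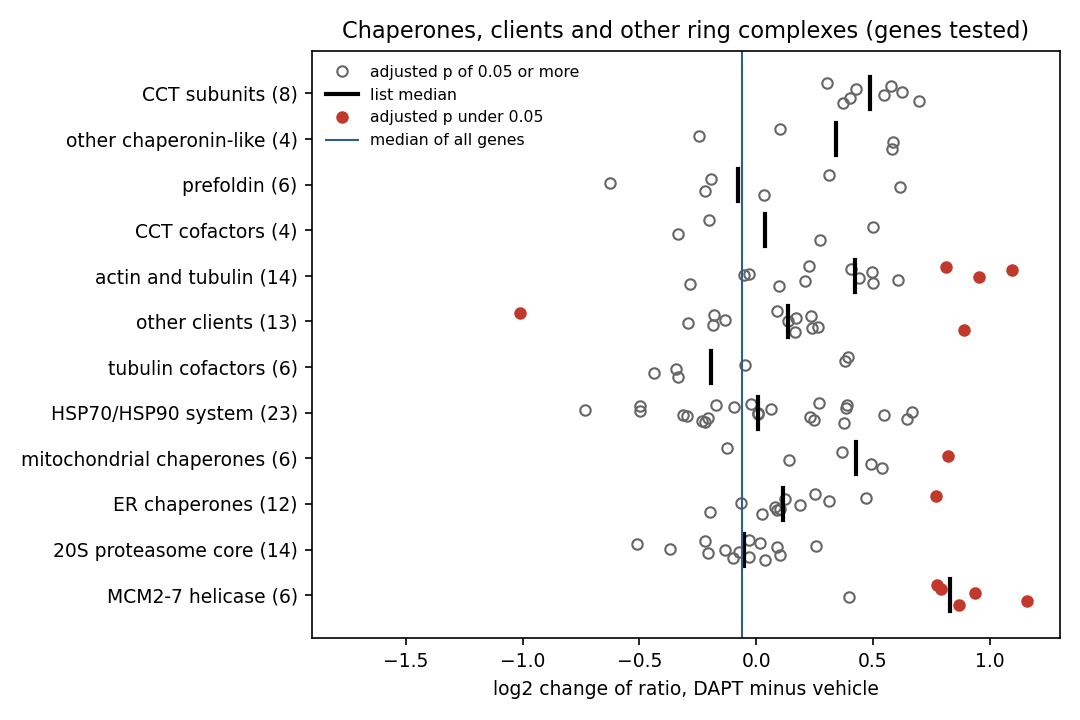
Log2 change of the ratio, DAPT minus vehicle (x axis), for each gene of 12 lists (rows, with the number of genes tested); filled red points have an adjusted p under 0.05, open points do not, black bars are list medians and the blue line is the median of all genes. CCT subunits stand between 0.30 and 0.70 with none filled, while 5 of 6 helicase subunits are filled. Over all genes 2.90% passed upward and 3.93% downward.

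Many genes outside the family had the same profile over the 4 arrays. Likeness was measured as the Euclidean distance between a gene's log2 ratios, centred on their mean, and the mean centred profile of the 8 subunits. The subunits themselves lay at 0.13 to 0.44 from that mean, with a median of 0.26, and 478 of 12614 other named genes well above background on all arrays lay within that median distance. The 5 nearest were Ppil1, which encodes a peptidyl-prolyl isomerase (distance 0.03), Phb2, a prohibitin of the inner mitochondrial membrane (0.03), Ndc1, a membrane nucleoporin (0.05), Stt3b, a catalytic subunit of oligosaccharyltransferase (0.05), and the phosphatase gene Ppm1g (0.05). Since they were picked for this likeness, their changes of 0.48 to 0.52 and their failure to pass add nothing further.

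The size of the CCT differences followed the scaling of the arrays. The gap between their median and that of the brightest genes moved less with median centring and with processed signals. With scale normalization and in the red channel alone, the gap fell along with the subunit median. With median centring the subunit median was 0.94 and that of the brightest genes 0.30, a gap of 0.64, and with loess these were 0.49 and -0.15, a gap of 0.63. With scale normalization the gap was 0.43 and with the processed signals of the scanner software 0.62. In the red channel alone it was 0.11, with 4 of 8 subunits above 0.

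**Figure D5:**
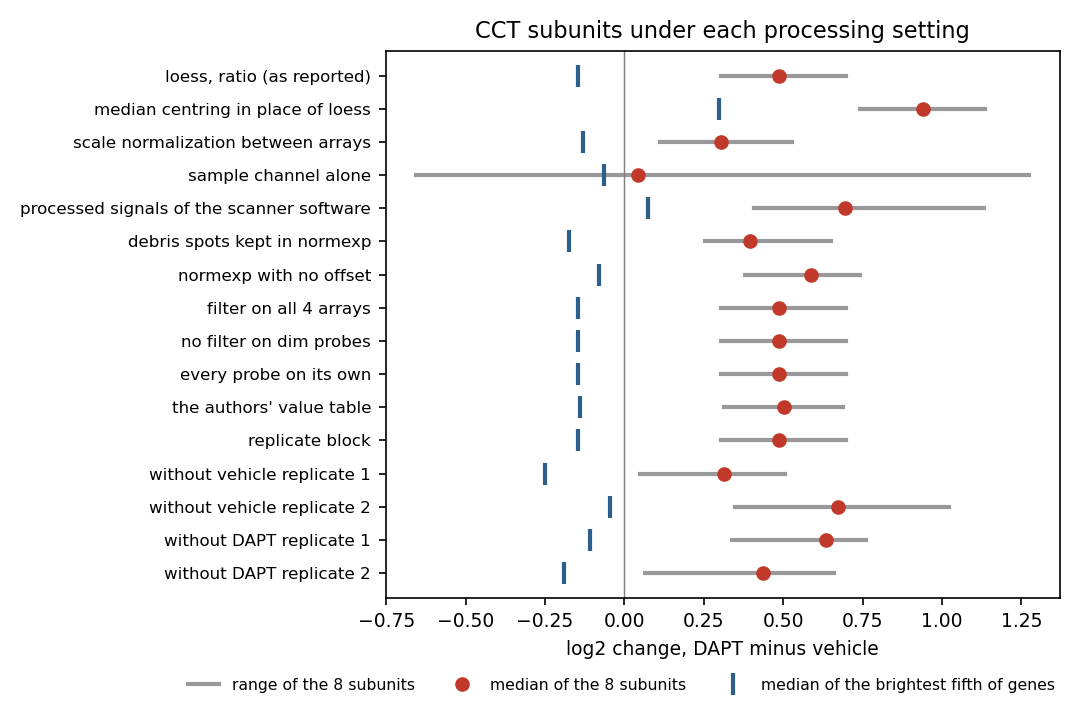
Median log2 change with DAPT of the 8 subunits (red points) with their range (grey bars) and the median of the brightest genes (blue ticks) under each processing setting (rows; x axis, DAPT minus vehicle). The subunit median runs from 0.04 in the red channel alone to 0.94 with median centring, and every subunit is above 0 in all settings shown but the red channel alone.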

How the data were processed

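Agilent arrays with both dyes were read, 2 with DAPT and 2 with vehicle, grouped by sample title. Per the file headers, Agilent Feature Extraction 10.7.3.1 wrote median spot and local background intensity, not normalized, and processed intensity values that were background-subtracted and dye-normalized. The deposited log10 ratio served only to find the scale of the authors' value table of log2 ratios, which correlated with it at 0.869 to 0.902 (direction sample over reference, column medians -0.015 to 0.00072) and, at 0.9996 to 0.9998, with the loess ratios computed here. Its normalization was not given in the sources used here.

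Intensities were corrected with limma's normexp (offset 50) and loess within arrays, after 13 spots of DAPT 2 with a local background over 5 times the array median were left out. Probes were kept that the software called well above background in the red channel of both replicates of at least 1 group, and the brightest stood for its gene. RefSeq accessions of GRCm38.p6 named 24375 of 41174 probes. Groups were compared with limma 3.58.1 in R 4.3.3 (two-sided, 2 arrays a group, Benjamini-Hochberg over 21451 genes, threshold 0.05), tested on simulated data. Signals of single dyes are after Aquantile normalization. Precision is limited by the number of arrays.

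The members and lists were chosen with earlier results of these data known. Named were all subunits, up to 3 passing genes per pathway list and direction, 10 fixed genes and the 5 genes nearest in profile. Hsp90aa1, Hspa1a and Hspb1 were named after their values were seen. Replicate numbers are only names here, and 16 alternatives were tried.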

Additional observations from a re-analysis of the deposited data

How the results depend on the processing

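With 2 arrays a group and 2 residual degrees of freedom, differences of the size seen at the CCT subunits lay near or below the smallest change called on these arrays. All 8 subunits kept a positive change under every alternative that could test them except the red channel alone, where Tcp1 stood at -0.23, Cct5 at -0.37, Cct7 at -0.66 and Cct8 at -0.061. The count of subunits passing upward was 8 with median centring and 1 (Cct3, adjusted p = 0.0485) with the replicate number as a block, and 0 to 3 when 1 array was left out. The subunit median was 0.94 with median centring, 0.30 with scale normalization, 0.042 in the red channel alone, 0.70 with processed signals and 0.31 to 0.67 when 1 array was left out. The standard deviation across subunits was 0.68 in the red channel alone, 0.23 with processed signals and 0.13 to 0.25 when 1 array was left out. Over all genes, 1261 were called higher and 525 lower with median centring, 380 higher with scale normalization, 0 higher and 2 lower in the red channel alone (2638 at an unadjusted p under 0.05), 290 and 334 with processed signals, 4 and 70 with the debris spots kept, 125 and 268 with no normexp offset, and 284 and 175 with marked spots left out, where 6918 genes and no CCT subunit could be tested. Left-out arrays gave 423 to 831 higher and 607 to 1045 lower, and the replicate block 897 and 1168. The causes were not tested. Same-numbered arrays shared little: the difference between the DAPT arrays correlated at 0.08 with that between the vehicle arrays across genes, so the numbers were not taken to pair the samples. No slide block was fitted, since all arrays shared 1 slide.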
